A study of Mus musculus with 8 samples.

Results

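Pax6 binding to histone genes was examined in alphaTC1, a glucagon-producing line of mouse pancreatic alpha cells. Sites were taken from the authors' deposited table of Pax6 sites when the assigned gene had a symbol starting with Hist or spelled like the H2af variants. This gave 51 sites assigned to 30 genes, of 26244 sites in all. One group was given scrambled antisense oligonucleotides (control knockdown, control KD) and the other antisense oligonucleotides that target Paupar (Paupar KD), a non-coding RNA of the Pax6 locus. Chromatin immunoprecipitation with sequencing (ChIP-seq) for Pax6 was done in duplicate in each group, giving 4 ChIP libraries, and the 4 input libraries were not used here. All libraries came from this 1 cell line, and nothing in the labels says that duplicates were separate cultures, so the authors' p-values may measure technical spread. No untreated cells were analysed here, and the knockdown itself cannot be checked in this assay. RNA of alpha-cell markers was not measured, but the strongest site at Gcg, the glucagon gene, had concentrations of 7.01 under control KD and 7.64 in Paupar KD (FDR 0.155) by the authors' deposited table. Other sites were assigned to Gcg, some with a larger rise after Paupar KD from a lower control KD signal. This 1 site therefore does not describe the whole gene.

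Histones are the proteins around which DNA is wound. H2A, H2B, H3 and H4 form the nucleosome core and H1 binds the linker DNA between cores. The genes of the replication-dependent histones lie in clusters, are expressed mainly in S phase and give mRNAs that end in a stem-loop instead of a poly(A) tail. Variants such as H2A.Z (H2afz) and macroH2A1 (H2afy) are encoded by single genes outside the clusters and are made throughout the cell cycle. Pax6 is a transcription factor with a paired domain and a homeodomain that is needed for islet endocrine cells.

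The sites lay on chromosome 13 (39 sites, 21 genes), chromosome 3 (8 sites), chromosome 11 (2 sites), chromosome 6 (1 site) and chromosome X (1 site). By gene name, 27 sites belonged to the Hist1 cluster, 6 to Hist2, 2 to Hist3 and 1 to Hist4, while H2afy had 12, H2afz 2 and H2afb1 1. Among core histones of the clusters, H2B genes had 14 sites, H4 genes 13, H2A genes 3 and H3 genes 2, and the linker histone H1 genes had 4. Most genes (21) had a single site, and 6 had 2, 2 had 3 and H2afy had 12. The authors' annotation placed 23 sites (45.1%) in promoters, against 27.5% of all sites.

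Of the 51 sites, 0 passed a false discovery rate (FDR) of 0.05 in the authors' DiffBind comparison, by the authors' deposited table. Of all sites 4.10% passed it, 3.26% with higher and 0.846% with lower signal after Paupar KD. At an unadjusted p below 0.05 there were 5 histone sites (9.80%), against 17.3% of all sites. Of these 3 were higher after Paupar KD, against 10.7% of all sites, and 2 lower, against 6.67%. Concentration here is the authors' mean log2 signal of a group in a window of 100 bp, with no value for single libraries, so no error could be given. The log2 change is Paupar KD minus control KD. Its median over the 51 sites was -0.19, with 23 sites above 0 and 28 below, and over all sites it was -0.03. Concentrations ranged from 0.95 to 7.89 under control KD and from 2.68 to 7.40 in Paupar KD.

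The promoters that carry the main sites are shown first, because the sites lay at different positions within them. Of the 30 genes, 27 had an entry in a table of RefSeq promoters (GRCm38.p6), and 8 sites overlapped 9 histone promoter windows, a divergent H2A and H2B pair sharing 1 site. The following are the 250 bases before the RefSeq start of 4 genes, 5′ to 3′ on the gene's strand. The first 3 belong to the windows that the strongest such sites overlap, and the last holds the only match to TTCACGC among the 9 windows. The printed bases cover only part of each of these 4 sites. Capitals mark, on either strand, the CCAAT box (CCAAT), the TATA box (TATAAA), the octamer (ATTTGCAT), the GC box (GGGCGG) and a paired-domain core (TTCACGC).
Hist1h2bm (H2bc14, chr13:21721794-21722043, plus strand): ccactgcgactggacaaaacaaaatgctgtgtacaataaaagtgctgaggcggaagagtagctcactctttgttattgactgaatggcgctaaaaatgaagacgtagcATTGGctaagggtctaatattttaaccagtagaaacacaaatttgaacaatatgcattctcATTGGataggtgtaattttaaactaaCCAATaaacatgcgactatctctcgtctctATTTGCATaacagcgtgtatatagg
Hist1h4a (H4c1, chr13:23761250-23761499, minus strand): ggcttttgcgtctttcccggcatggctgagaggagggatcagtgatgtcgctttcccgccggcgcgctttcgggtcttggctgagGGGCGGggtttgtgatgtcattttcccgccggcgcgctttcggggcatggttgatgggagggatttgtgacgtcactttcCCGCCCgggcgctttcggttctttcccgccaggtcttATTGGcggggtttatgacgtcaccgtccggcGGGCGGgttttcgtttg
Hist1h4h (H4c8, chr13:23530794-23531043, plus strand): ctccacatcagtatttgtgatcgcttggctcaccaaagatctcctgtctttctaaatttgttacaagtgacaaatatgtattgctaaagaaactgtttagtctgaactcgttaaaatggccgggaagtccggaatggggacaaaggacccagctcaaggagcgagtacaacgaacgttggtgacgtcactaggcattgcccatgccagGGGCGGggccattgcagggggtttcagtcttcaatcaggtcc
Hist1h4d (H4c4, chr13:23581318-23581567, plus strand): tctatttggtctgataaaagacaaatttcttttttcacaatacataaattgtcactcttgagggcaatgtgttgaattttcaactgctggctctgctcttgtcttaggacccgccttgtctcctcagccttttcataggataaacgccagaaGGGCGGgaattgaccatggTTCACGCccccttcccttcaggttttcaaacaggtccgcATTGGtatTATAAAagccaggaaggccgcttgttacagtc

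The Hist1h2bm promoter has CCAAT boxes on both strands and the octamer 25 bases before the start, elements known from H2B promoters, and its Pax6 site covered bases 264 to 165 before the start, upstream of all of them. At Hist1h4a the site covered bases 309 to 210 before the start. The sites at Hist1h4h and Hist1h4d spanned the start itself, from 39 and 40 bases before it to 60 and 59 bases after. TTCACGC, taken as a core of the paired-domain motif and searched on both strands, was found in 1 of the 9 windows of 300 bases (250 before and 50 after the start), 79 bases before the Hist1h4d start and outside the site. It was found in 1.41% of 71 histone promoter windows and in 1.26% of all 32851 promoter windows. A longer form of the paired-domain motif and the palindromic homeodomain motif had no match in the 9 windows and were in 0.548% and 0.487% of all promoters. The homeodomain core TAAT was in 6 of the 9, in 64.8% of the 71 and in 58.0% of all. The windows did not hold the whole of every site. Summits at Hist1h2bm lay 274 to 292 bases before the start, outside its window. The Hist2h2be site covered bases 345 to 246 before the start of H2ac20, and so met that window only at its edge. These counts describe promoter windows and cannot show which motifs the sites hold.

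CCAAT was in 7 of the 9 windows, in 84.5% of 71 histone promoters and in 37.4% of all promoters. The windows of the divergent pair H2ac15 and H2bc15 overlap on opposite strands. Their matches to CCAAT, TAAT and TATAAA are the same elements, counted in both windows. TATAAA was in 7 of the 9, in 52.1% of histone promoters and in 13.6% of all. It was counted at any position, from 250 bases before the start (Hist1h4f) to 41 after it (Hist1h4a). The count is therefore not one of TATA boxes at a set place. ATTTGCAT was in 2 of the 9, in 21.1% of histone promoters and in 1.74% of all. GGGCGG was in 5 of the 9, in 40.8% of histone promoters and in 35.7% of all. The E2F motif TTTCGCGC was in none of the 9, in 12.7% of histone promoters and in 0.323% of all. A match describes the letters and does not show binding. The longest stretch that one of the 9 windows shared exactly with a histone promoter elsewhere was 28 bases, between the promoters of H2ac15 and H2ac7.

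Sites at the histone genes themselves came to 24 once H2afy was set aside. Each lay within 1 kb of a RefSeq histone gene, with 8 wholly inside the gene, 7 overlapping one of its ends, 5 upstream of it and 4 beyond its 3′ end. Their median log2 change was -0.31, with 17 sites below 0 and 7 above. Of the 24, 0 had an unadjusted p below 0.05, against 17.3% of all sites, by the authors' deposited table. Over all 23 histone sites annotated to promoters the median was -0.28, beside -0.23 over all 7216 promoter sites. Of these 23, 16 (69.6%) were below 0, beside 64.3% of all promoter sites. Of the 23, 0 passed an FDR of 0.05, against 2.95% of all promoter sites (1.57% higher and 1.39% lower). The 28 histone sites outside promoters had a median of 0.09, with 16 above 0 and 12 below, beside 0.08 over all sites outside promoters. At an unadjusted p below 0.05, 0 of the 23 promoter sites were higher, against 5.25% of all promoter sites, and 0 were lower, against 10.7%.

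**Figure D1:**
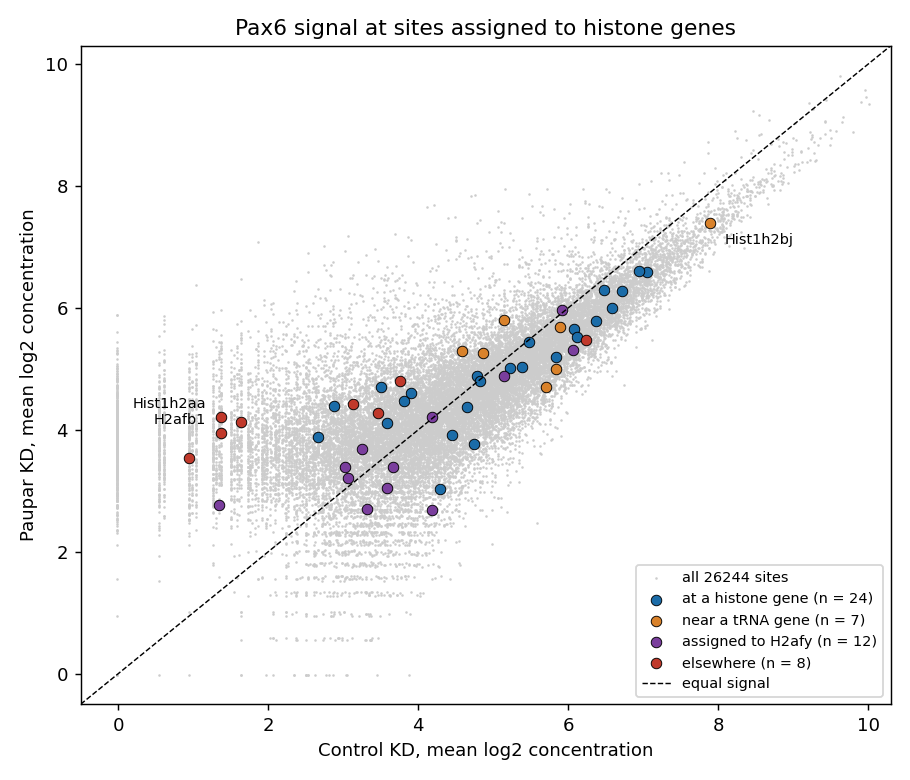
Mean log2 concentration in control KD (x axis) against Paupar KD (y axis) for all 26244 sites (grey) and the 51 histone sites, coloured by where they lie. Histone sites above a concentration of 6 in control KD lay below the line of equal signal, and histone sites below 2 lay above it.

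Several H4 genes had a site over the gene start. In 5 of the 51 sites the window contained the start of a histone gene, and 4 of these were H4 genes (Hist1h4d, Hist1h4f, Hist1h4h and Hist2h4). The 13 summits that the single libraries had at those 4 sites lay between 31 bases before and 110 bases after the start. Hist1h4h had 6.72 under control KD and 6.28 in Paupar KD (log2 change -0.44, p = 0.164, FDR 0.505) by the authors' deposited table. Hist2h4, of the Hist2 cluster on chromosome 3 (96263240 to 96263339), was the strongest site of that cluster, with 6.48 and 6.29 (FDR 0.829) by the authors' deposited table. It had a summit in every library, with scores of 13.3 and 7.82 from the control KD libraries and 17.8 and 23.4 from the Paupar KD libraries. A summit score was read as the −log10 q of its list, which is inferred from the values, and was compared only within that list. These placed the Hist2h4 summit at the 56.6, 42.7, 72.1 and 81.3 percentiles of the 4 lists.

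Hist1h4d had the most even signal of the H4 starts, with 5.48 under control KD and 5.45 in Paupar KD (log2 change -0.03, FDR 0.986) by the authors' deposited table. Hist1h4f had 5.84 and 5.19 (FDR 0.474), and a summit in control KD replicate 1 and in Paupar KD replicate 2 alone, by the authors' deposited table. Hist1h4a, 210 bases from the gene, had 6.94 and 6.60 (FDR 0.627) by the authors' deposited table. Its summit scores differed widely within groups, at 7.95 and 2.37 under control KD and 11.5 and 33.6 in Paupar KD. Hist4h4, the only histone gene with a site on chromosome 6, had 6.12 and 5.52 (FDR 0.422) by the authors' deposited table. Weaker H4 sites did not share one direction. Hist1h4j, at a distance of 427 bp by the authors' annotation, had 2.88 and 4.39 (p = 0.0594, FDR 0.313), and Hist1h4c had 4.45 and 3.92 (FDR 0.766), by the authors' deposited table.

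Among H2B genes, 7 of 14 assigned sites were in promoters. The strongest site at an H2B gene was Hist1h2bm, with 7.05 and 6.59 (log2 change -0.45, p = 0.125, FDR 0.447) by the authors' deposited table. Summits there had scores of 31.1 and 8.45 from the control KD libraries and 30.7 in Paupar KD replicate 2, with none in Paupar KD replicate 1. Hist1h2bn had 5.38 and 5.04 (FDR 0.776) by the authors' deposited table and was the 1 histone site without a summit in any library. Its window held the start of the gene, which faces away from a neighbouring H2A gene. At Hist2h2bb the promoter site had 5.22 and 5.02 (FDR 0.885), and at Hist2h2be it had 4.79 and 4.89 (FDR 0.953), by the authors' deposited table. The Hist3 sites on chromosome 11 were weak, with 3.58 and 4.12 at Hist3h2ba (FDR 0.802) and 4.75 and 3.77 at the pseudogene Hist3h2bb-ps (FDR 0.490) by the authors' deposited table. All 3 sites assigned to H2A genes of the clusters lay over 5 kb from the gene and are described below with the distal sites. Sites assigned to Hist1h2bn and Hist2h2be, however, also overlapped the promoter windows of the H2A genes H2ac15 and H2ac20. Counts by histone class therefore follow the assigned name and do not show that cluster H2A genes lacked nearby sites.

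H1 and H3 genes had few sites, with 3 of the 4 H1 sites and both H3 sites annotated to promoters. The Hist1h1c site lay 56 bases past the 3′ end of the gene (chromosome 13, 23739587 to 23739686), with 6.58 and 6.0 (log2 change -0.58, p = 0.086, FDR 0.372) by the authors' deposited table. It had a summit in every library, with scores of 18.1 and 9.81 under control KD and 16.5 and 18.1 in Paupar KD. Hist1h1b had a site inside the gene, with 6.37 and 5.78 (log2 change -0.58, FDR 0.400), by the authors' deposited table. A weaker site, assigned to Hist1h1d, at 3.81 and 4.47 (FDR 0.672) by the authors' deposited table, was annotated as an outer promoter but overlapped the last 27 bases of the RefSeq gene. A site assigned to the Hist1h2be promoter, with 3.51 and 4.70 (FDR 0.371) by the authors' deposited table, lay 24 bases past the 3′ end of H1f4, another H1 gene. The H3 sites, at Hist1h3e (2.66 and 3.88, FDR 0.621) and Hist2h3c2 (4.83 and 4.81, FDR 0.99), each had a summit in 1 library, with signal by the authors' deposited table.

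Assignment to the nearest start did not always name the gene a site lay in. A pair of sites assigned to Hist1h4d lay inside the long RefSeq model of the neighbouring H2bc6, which is Hist1h2be under its current symbol. The one in an intron (chromosome 13, 23592843 to 23592942) had 4.29 and 3.03 (log2 change -1.26, p = 0.167, FDR 0.510), among the 3 lowest changes, by the authors' deposited table. The other, in the 3′ UTR class, had 3.91 and 4.60 (FDR 0.637) by the authors' deposited table. The H3 genes H3c1 and H3c13 each had 1 site within 1 kb that was assigned to another gene.

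Many distal sites of the Hist1 cluster lay beside transfer RNA (tRNA) genes, which share this part of chromosome 13 with the histone genes. Of the 51 sites, 8 (15.7%) lay within 1 kb of a tRNA gene, all in the Hist1 cluster, and 7 of these were not at a histone gene. Among all 26244 sites, 129 sites (0.492%) lay that close to one. The stretch from the first to the last Hist1 gene with a site (21715711 to 23934913), with 10 kb on each side, held 52 sites, of which 25 were near a tRNA gene. Among these 25 were 17 sites assigned to genes other than histones. Closeness to a tRNA gene was therefore not particular to sites assigned to histone genes, and the stretch holds 77 of the 430 tRNA genes in the RefSeq table. This feature was noticed in the data and then counted.

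The strongest of all 51 sites was of this kind. Assigned to Hist1h2bj from 7.87 kb away (22051082 to 22051181), it lay 315 bp from a serine tRNA gene (n-TSgct5) and had 7.89 under control KD and 7.40 in Paupar KD (log2 change -0.49, p = 0.0515, FDR 0.290) by the authors' deposited table. Every library had a summit there, at the 92.5 and 89.4 percentiles of the control KD lists and the 94.5 and 97.8 percentiles of the Paupar KD lists. A site that overlapped a valine tRNA gene (n-TVcac8, 22026556 to 22026655), assigned to Hist1h2ah, had 5.71 and 4.70 (log2 change -1.01, p = 0.0274, FDR 0.208) by the authors' deposited table. It too had a summit in every library, with scores of 29.7 and 19.5 under control KD and 11.7 and 15.7 in Paupar KD. The other site assigned to Hist1h2ah had 5.89 and 5.69 (FDR 0.854) by the authors' deposited table. A site over an isoleucine tRNA gene (n-TIaat11), assigned to Hist1h2bq, had 5.84 and 5.0 (p = 0.0838, FDR 0.368) by the authors' deposited table.

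The other 3 sites of this kind had changes above 0, with none at an unadjusted p below 0.05. Those assigned to Hist1h4h from 13.3 kb and 9.07 kb upstream lay over the tRNA genes n-TMcat6 and n-TSgct4, with 5.15 and 5.81 (FDR 0.442) and with 4.86 and 5.27 (FDR 0.755), by the authors' deposited table. At the site assigned to Hist1h2bl the values were 4.58 and 5.29 (FDR 0.518) by the authors' deposited table. The 7 sites thus had 3 changes above 0 and 4 below, with a median of -0.20, and the 129 sites near tRNA genes had a median of -0.02 by the authors' deposited table. Their median mean concentration was 5.48, beside 5.40 over those 129 sites and 4.42 over all sites.

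**Figure D2:**
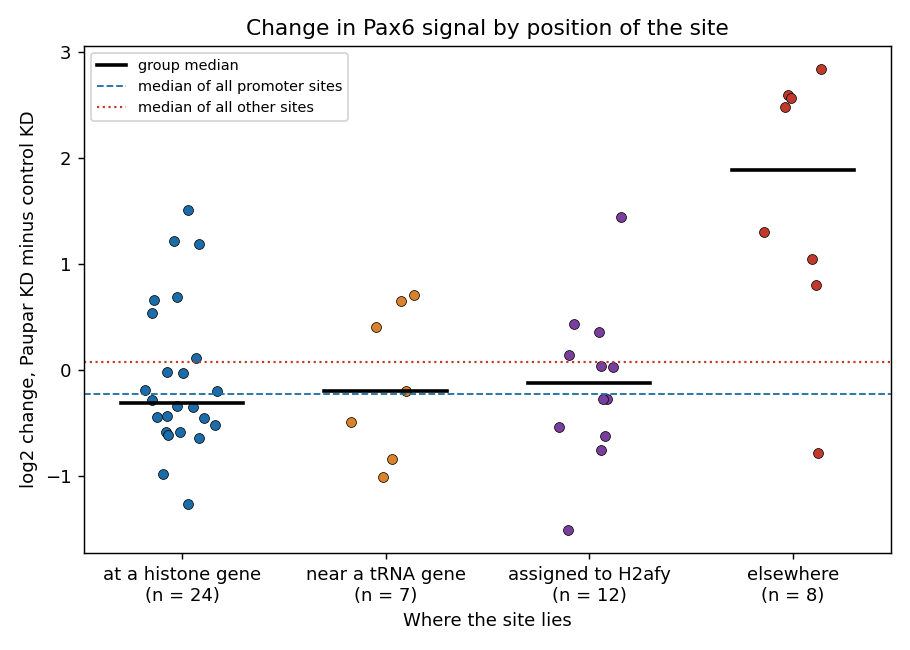
Log2 change (Paupar KD minus control KD, y axis) of each histone site by where it lies, with the group median as a black bar and the medians of all promoter sites (-0.23) and of all other sites (0.08) as lines. Only the 8 sites elsewhere had a median above 0, at 1.89, and these included the 4 largest changes. Sites assigned to H2afy were grouped apart, wherever they lay.

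The largest changes were at mostly weak sites farther than 1 kb from any histone or tRNA gene, with H2afy set aside. The 5 H2afy sites past the gene end also lay that far away, with log2 changes from -1.51 to 1.44. Of the 8 sites assigned to other genes, 7 were higher after Paupar KD and 1 lower, with a median log2 change of 1.89. Their medians were 2.39 under control KD and 4.24 in Paupar KD, by the authors' deposited table. All 8 had a summit in Paupar KD replicate 1, against 4 in Paupar KD replicate 2, 2 in control KD replicate 1 and 1 in control KD replicate 2. The 8, grouped after the data had been seen, included 4 of the 5 histone sites with an unadjusted p below 0.05 (50% of the 8, against 17.3% of all sites). Their lowest control KD values were near the floor of the scale, which reached -0.01 over all sites. The part of Paupar KD replicate 1 in these changes was not tested, since the table holds no value per library. Hist1h2aa, which encodes a testis H2A, had a site 8.48 kb from its start (23942942 to 23943041) with 1.37 under control KD and 4.21 in Paupar KD, a log2 change of 2.84 (p = 0.00693, FDR 0.0989), by the authors' deposited table. This was the lowest FDR of the 51 sites. Summits there had scores of 7.35 and 2.87 from the Paupar KD libraries, at the 34.5 and 4.50 percentiles of their lists, and the control KD libraries had none.

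Hist1h2ba, the neighbouring gene for a testis H2B, had a pair of sites at 8.05 kb and 5.66 kb. The former had 0.95 and 3.54 (log2 change 2.59, p = 0.0454, FDR 0.271), the weakest site of the Hist1 cluster, and the latter 3.76 and 4.81 (FDR 0.414), by the authors' deposited table. The Hist1h2ba sites lay 12.1 kb and 14.5 kb, and the Hist1h2aa site 29.0 kb, from a site assigned to Slc17a4, a phosphate transporter gene, that had the lowest FDR of the whole table (4.12 and 7.66, FDR 8.79e-16) by the authors' deposited table. Of the 52 sites in the Hist1 stretch 4 passed an FDR of 0.05, all higher after Paupar KD, while 3.26% of all sites were called higher. The 4 sites were assigned to Slc17a4, Prss16, Btn1a1 and C230035I16Rik.

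Outside the clusters, H2afz had a distal site 8.83 kb upstream (chromosome 3, 137855559 to 137855658) with 1.64 and 4.13 (log2 change 2.48, p = 0.016, FDR 0.155) by the authors' deposited table. The H2afz site inside the gene, called a promoter by the authors, had the opposite direction, with 6.08 and 5.65 (log2 change -0.43, FDR 0.627), by the authors' deposited table. Each H2afz site had a summit in 1 library, in Paupar KD replicate 1 for the distal site and in Paupar KD replicate 2 for the site in the gene. H2afb1, which encodes an H2A.B variant, was assigned a site 285 kb away on chromosome X with 1.37 and 3.95 (log2 change 2.57, p = 0.21, FDR 0.565) by the authors' deposited table. Its change was close to that of Hist1h2ba, while its p was larger, and the spread between libraries behind that p cannot be seen. The distal Hist2h2be site, the weakest of the Hist2 cluster, had 3.13 and 4.43 (FDR 0.402), and the distal Hist1h1c site 3.47 and 4.27 (FDR 0.658), by the authors' deposited table. The 1 lower site of the 8 was assigned to Hist2h2bb from 8.44 kb away, in an exon of another transcript, with 6.24 and 5.47 (log2 change -0.78, p = 0.0382, FDR 0.247), by the authors' deposited table.

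**Figure D3:**
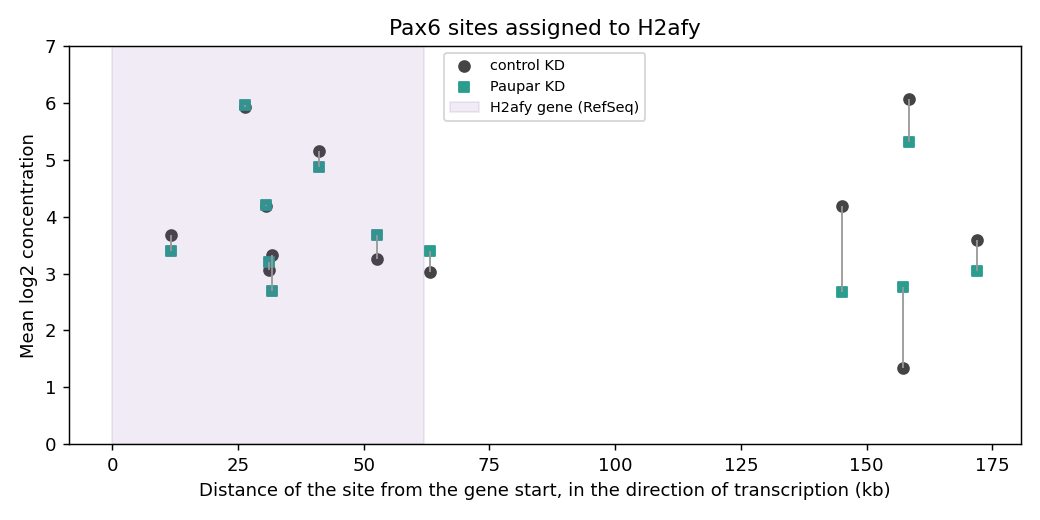
Mean log2 concentration in control KD (circles) and Paupar KD (squares) of the 12 sites assigned to H2afy, by distance from the gene start in kb, with the gene shaded. There were 7 sites inside the gene and 5 past its end, and no site lay near the start.

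H2afy encodes macroH2A1, an H2A variant with a large added domain, enriched on silent chromatin. Its 12 sites were the most of any histone gene. Of the 12, 0 had an unadjusted p below 0.05, against 17.3% of all sites, by the authors' deposited table. They had a median log2 change of -0.12, with 6 above 0 and 6 below. By the RefSeq gene, 7 sites lay inside it and 5 past its 3′ end, and the site closest to the start was 11581 bp after it. The authors' annotation called 1 of the 12 a promoter site, by another start within the gene. The strongest lay in an intron (chromosome 13, 56109217 to 56109316), with 5.92 and 5.96 (log2 change 0.04, FDR 0.976), by the authors' deposited table. Its summit scores were 41.3 and 19.1 under control KD and 44.5 and 27.3 in Paupar KD, so the lists of both groups held it. A site 96414 bp past the gene (55977109 to 55977208) had 6.06 and 5.31 (log2 change -0.75, p = 0.084, FDR 0.368) by the authors' deposited table. Another, in an intron (56094570 to 56094669), had 5.15 and 4.88 (FDR 0.854) by the authors' deposited table.

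These 3 H2afy sites had a summit in every library, and the other 9 had a summit in 1 library each. Among the latter was the lowest change of the 51 sites, 83020 bp past the gene (55990503 to 55990602), with 4.19 and 2.68 (log2 change -1.51, p = 0.0722, FDR 0.343) and a summit in control KD replicate 1 alone, by the authors' deposited table. The weakest of all the histone sites, 95121 bp past the gene (55978402 to 55978501), had 1.34 and 2.77 (p = 0.281) by the authors' deposited table, and its FDR was set to 1, outside the authors' adjustment. The remaining 7 had changes between -0.62 and 0.43, with 4 above 0 and 3 below.

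**Figure D4:**
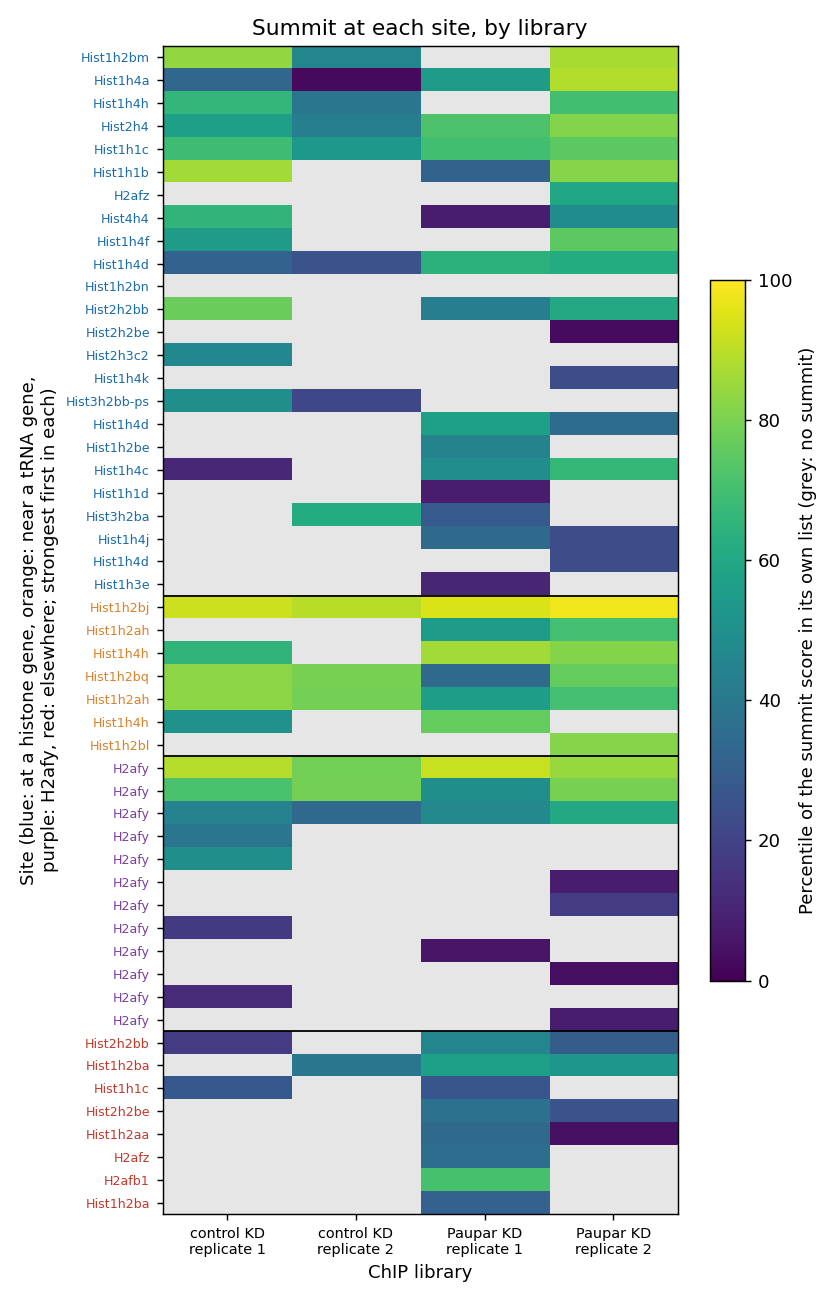
Percentile of the summit score within its own list for each histone site (rows, strongest first in each group) and ChIP library (columns), with grey where no summit lay within 250 bp of the middle of the site. The site assigned to Hist1h2bj had percentiles of 89.4 to 97.8 in the 4 lists, and the lower rows of each group mostly had a summit in 1 library.

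Support by summits was much like that of the whole table. A summit lay within 250 bp of the middle of 27 and 15 histone sites from the control KD libraries and of 32 and 34 from the Paupar KD libraries. As shares these were 52.9% and 29.4%, and 62.7% and 66.7%, beside 49.96% and 34.9%, and 54.4% and 63.1%, of all sites. The lists held 14311 and 9983 summits under control KD and 15611 and 17942 in Paupar KD. All 4 libraries had a summit at 10 histone sites (19.6%, against 20% of all sites), and a single library at 21 (41.2%, against 43.9%). Summits in Paupar KD libraries alone were found at 21 of the 51 sites, beside 37.8% of all sites, and in control KD libraries alone at 6 of the 51, beside 15.8% of all sites.

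The direction of change varied with the strength of the signal, in histone sites as in all sites. In the highest quartile of mean concentration over the table, 15 of 17 histone sites were below 0, with a median log2 change of -0.45, beside -0.36 over all sites of that quartile, by the authors' deposited table. In the third quartile 6 of 9 were below 0 (median -0.20, all sites -0.12). In the second quartile 9 of 13 were above 0 (median 0.66, all sites 0.20), and in the lowest 9 of 12 (median 0.825, all sites 0.72), by the authors' deposited table.

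The Hist1 stretch holds 54 protein-coding histone genes in RefSeq, and 17 of them had a listed Pax6 site within 1 kb of the gene, under any assignment. In the Hist2 stretch on chromosome 3 (96221072 to 96270192) 5 of 8 had one. Of 10 further histone gene symbols outside the naming rule, only H3f3a, which encodes the variant H3.3, was named at any site. Its sites had 3.36 and 3.89 (FDR 0.807) and 4.34 and 4.69 (FDR 0.874) by the authors' deposited table. Among the 10, H4f16 is the current symbol of Hist4h4, whose site is given above under the older name.

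Genes that act on histone gene expression and on histones were compared next. The first list held 35 gene symbols for factors of histone gene transcription and mRNA processing, with some genes entered under an older symbol as well. Of these symbols, 14 had 24 sites. Of the 24 sites, 0 passed an FDR of 0.05, against 4.10% of all sites, by the authors' deposited table. An unadjusted p below 0.05 was found at 4 of them, against 17.3% of all sites. Nfyc, a subunit of the CCAAT-binding factor NF-Y, had 0.61 and 4.22 at its promoter (p = 0.00274, FDR 0.0575) by the authors' deposited table, with a summit in 1 library. Slbp, which encodes the protein that binds the stem-loop of histone mRNAs, had 6.50 and 5.89 at its promoter (FDR 0.413) by the authors' deposited table. The median log2 change of the 24 sites was 0.355, with 15 above 0 and 8 below, beside -0.03 over all sites. Creb1 had more of the 24 sites than any other gene, most of them distal intergenic, so the median leans on this gene. Of 33 histone chaperone and exchange genes, 13 had 26 sites, with a median log2 change of -0.21, and 1 passed an FDR of 0.05, against 4.10% of all sites, while 8 had an unadjusted p below 0.05, against 17.3%, by the authors' deposited table. The higher site lay in an intron of Ubn2, a subunit gene of the HIRA chaperone complex that deposits H3.3, with 2.86 and 6.75 (log2 change 3.89, p = 0.00023, FDR 0.0125), by the authors' deposited table. Another Ubn2 site, 1211 bp upstream, had 1.95 and 6.05 (p = 0.0115, FDR 0.129) by the authors' deposited table. Asf1b, an H3 and H4 chaperone gene, had 6.54 and 5.57 at its promoter (p = 0.016, FDR 0.155) by the authors' deposited table. A weaker Asf1b promoter site had the opposite direction, with 2.28 and 3.53 (FDR 0.6), by the authors' deposited table. Anp32e, a gene for an H2A.Z chaperone, had 8.16 and 7.66 at a distal site (p = 0.0345, FDR 0.234) by the authors' deposited table. Another distal Anp32e site had the opposite direction, with -0.01 and 3.1 (p = 0.0499, outside the authors' adjustment), by the authors' deposited table. Of the 26 chaperone sites, 10 were above 0 and 16 below.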

How the data were processed

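Pax6 ChIP-seq was measured in 2 libraries per group. Bowtie2, MACS2, DiffBind and ChIPseeker are named with the mm10 build, per the submitters' processing notes, without versions. How libraries were normalized against each other is not given in the sources used here; library depth is unknown. The table deposited by the authors gives mean log2 concentrations and a log2 fold (control KD minus Paupar KD, its sign turned here); the log2 scale is read from the values, since the fold equals the difference of the concentrations. The p-value, FDR and −log10 FDR per site are also the authors' deposited values. The score in each deposited summit list was read as −log10 of the q-value.

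Sites were selected by symbol, matched to summits within 250 bp of their middle and located against RefSeq genes and promoters (GRCm38.p6, whose chromosome coordinates are those of mm10); all 30 gene IDs matched. No test was run, because the table holds group means: the authors' calls at an FDR below 0.05 were read over the whole table. Of all sites, 1010 had an FDR of 1 beside a p-value below 0.99. The members, lists and rules were chosen with earlier results of these data known. Sites described in full were, by rule, the strongest and weakest of each cluster, the 3 largest and smallest changes, those with an unadjusted p below 0.05 and, in part, the 28 farther than 3000 bp from a start; others were added for their position. Summit matching and the motif search were tested on simulated data. Python 3.11.15, pandas 2.3.3 and matplotlib 3.10.9 were used. Alternatives tried were other thresholds, subsets of sites, matching distances and leaving out each library.
Sites were grouped as at a histone gene, near a tRNA gene, at H2afy or elsewhere after the data had been seen. The site windows themselves were not searched for motifs, and the input libraries were not analysed here.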

Additional observations from a re-analysis of the deposited data

How the results depend on the processing

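The count of called histone sites was 0 at an FDR of 0.05 and with sites inside the authors' adjustment alone, 1 at an FDR below 0.1 (Hist1h2aa) and 5 at an unadjusted p below 0.05. The median log2 change of -0.19 was below 0 in the alternatives run: -0.28 over promoter sites (the 28 sites outside promoters had a median above 0, at 0.09), -0.42 over sites with a summit in every library, -0.345 over sites above the median concentration, -0.075 with 1 value per gene, -0.03 with the other histone genes (2 further sites) and -0.19 without the H2afy sites, the last chosen after seeing the data. Histone sites with a summit in all libraries numbered 10, and 7 to 11 with matching distances of 100 and 500 bp or a score of at least 5; leaving out each library in turn gave 10 to 16, with 16 without control KD replicate 2, which has the shortest list. Sites in promoters were 23, or 21 within 1000 bp of a start. Sites near a tRNA gene were 8, or 7 within 500 bp and 8 within 2000 bp, distances chosen after seeing the data. No paired analysis was possible because the table holds group means and no value per library. Without values per library, no change could be recomputed without a library.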
